A study of Mus musculus with 16 samples.

Results

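The interleukin-1, TNF and inflammasome genes described here are 10 genes: the cytokines Il1a, Il1b and Tnf, the interleukin-1 receptor antagonist Il1rn, the receptors Il1r1, Tnfrsf1a and Tnfrsf1b, and the inflammasome parts Nlrp3, Pycard and Casp1. They were chosen by name, as the rows of the deposited count table whose Ensembl identifier carries one of these symbols, and all 10 were found among 46078 genes. RNA was sequenced from demyelinated lesions of the spinal cord of C57BL/6 mice aged 8 to 12 weeks. Every mouse in all 4 groups had received lysolecithin, a membrane-dissolving lipid used to remove myelin locally, so no group shows uninjured cord. The exercise groups had a free running wheel and the control groups a locked one. Lesions were collected at day 5 or day 10, which gave 4 libraries in each of the 4 groups.

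Interleukin-1 alpha and interleukin-1 beta bind the same receptor, interleukin-1 receptor 1, and the antagonist encoded by Il1rn occupies that receptor without signalling. TNF signals through receptor 1, encoded by Tnfrsf1a and found on most cell types, and receptor 2, encoded by Tnfrsf1b and found mainly on immune, endothelial and glial cells. The NLRP3 inflammasome is a complex of the sensor NLRP3, the adaptor ASC (encoded by Pycard) and the protease caspase-1, which cleaves the precursor of interleukin-1 beta. In the injured cord these genes are known from microglia and infiltrating macrophages, and TNF receptor 2 is known for a role in remyelination. Messenger RNA does not report the cleavage or release of these proteins.

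The promoters of the 3 cytokine genes and of Nlrp3 are shown. Il1a, Il1b and Nlrp3 separated groups, as did Casp1, whose promoter held none of the motifs searched, and Tnf is the cytokine that did not. All 10 members had an entry in the RefSeq promoter table. Each run is the 250 bases before the RefSeq transcription start on GRCm38.p6, written in the direction of the gene, with the motif matches in capitals.
Il1a, chr2:129309973-129310222, minus strand: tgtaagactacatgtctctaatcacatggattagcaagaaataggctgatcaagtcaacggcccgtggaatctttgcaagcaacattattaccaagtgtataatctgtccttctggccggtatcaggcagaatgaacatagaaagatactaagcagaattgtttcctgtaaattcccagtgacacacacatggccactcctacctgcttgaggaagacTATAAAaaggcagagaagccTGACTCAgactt
Il1b, chr2:129371140-129371389, minus strand: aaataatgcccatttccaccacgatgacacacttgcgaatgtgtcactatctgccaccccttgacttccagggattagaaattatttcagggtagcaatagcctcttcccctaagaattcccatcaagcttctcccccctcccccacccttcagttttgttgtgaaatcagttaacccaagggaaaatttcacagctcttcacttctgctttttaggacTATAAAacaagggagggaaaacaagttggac
Tnf, chr17:35202008-35202257, minus strand: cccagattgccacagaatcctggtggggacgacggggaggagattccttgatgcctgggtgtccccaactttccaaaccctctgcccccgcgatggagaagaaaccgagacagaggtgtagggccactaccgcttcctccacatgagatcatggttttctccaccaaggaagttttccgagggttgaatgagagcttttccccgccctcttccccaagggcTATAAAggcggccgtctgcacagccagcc
Nlrp3, chr11:59541319-59541568, plus strand: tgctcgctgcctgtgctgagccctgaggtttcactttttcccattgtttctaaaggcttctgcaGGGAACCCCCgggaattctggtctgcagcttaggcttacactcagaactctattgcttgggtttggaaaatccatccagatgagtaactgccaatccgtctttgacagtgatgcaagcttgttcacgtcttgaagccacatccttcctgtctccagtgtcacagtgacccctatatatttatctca
The letters TATAAA stood 32 to 27 bases before the start in Il1a, 31 to 26 in Il1b and 29 to 24 in Tnf, and in no other member. On the gene's own strand with a first base 35 to 25 bases before the start, TATAAA was held by 1.75% of 32851 RefSeq promoter windows of the same length, and anywhere on either strand by 12.4%. The AP-1 letters TGANTCA, searched on both strands, lay 12 to 6 bases before the start of Il1a and farther upstream in 1 window of Il1rn, against 6.75% of all windows. The other windows of Il1rn held none. In Nlrp3 the capitals mark a match to the NF-kB consensus 186 to 177 bases before the start, which 7.25% of windows also hold on either strand. The other Nlrp3 window, not shown, held none of the motifs, and 1 of the 2 windows of Il1r1 held an NF-kB match. The C/EBP letters TTGCNNAA occurred in 1 of the 2 windows of Il1r1 and in Pycard, against 9.56% of windows. No 2 of these motifs overlapped in the 4 promoters shown. A match describes letters and does not show that a factor was bound in these lesions.

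At day 5 a control library held 11.2 to 13.93 M counts (M for mega), an exercise library 8.126 to 10.93 M. At day 10 the ranges were 10.71 to 12.7 M for control, 9.773 to 11.09 M for exercise. The share of counts in the mitochondrial ribosomal RNA gene mt-Rnr2 at day 5 ran from 8.055% to 10.28% for control libraries, from 10.91% to 12.94% for exercise libraries, so depth and this share both separated the day 5 groups. At day 10, exercise replicate 17 stood apart: its summed level of 10 pan-myeloid genes was 5228 CPM (counts scaled to a TMM-corrected library size of 1 M), against 2861 to 3969 CPM in the other 3 exercise libraries. The authors' deposited table for day 10 was made from 7 libraries, without this one. The members' exercise differences at day 10 are therefore also given without it. So are the day changes in exercise of Il1a, Il1b, Nlrp3, Casp1 and Pycard. Marker sums and list counts include it. As a check of the tissue, 10 myelin and oligodendrocyte genes were detected in all groups, with summed levels from 11045 to 28283 CPM over the 16 libraries. In bulk tissue, fewer cells of a type and less RNA per cell cannot be told apart. The labels do not say that each library is a separate mouse, so every p here reflects library-to-library spread, which may be technical.

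Per kilobase of exon, which allows levels of different genes to be compared, the receptor Tnfrsf1a had the highest level of the 10 members, with group means from 29.5 to 33.1 CPM per kb. The inflammasome genes Casp1 (15.9 to 21.8 CPM per kb) and Pycard (14.3 to 20.6 CPM per kb) and the cytokine Il1a (12.3 to 22.1 CPM per kb) followed. Tnfrsf1b had group means of 11.6 to 17.2 CPM per kb, Il1r1 of 6.54 to 7.22 and Il1rn of 5.43 to 7.01. Nlrp3 lay at 0.928 to 2.12 CPM per kb, Il1b at 0.491 to 1.89 and Tnf at 0.434 to 0.838. The adaptor and protease of the inflammasome were thus far above its sensor, and Il1a was far above Il1b, in every group. Il1b rested on 6 to 63 reads per library and Tnf on 2 to 30. These 2 genes reached the count filter's level in 12 and 9 of the 16 libraries, while the other 8 members passed it in all 16.

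**Figure D1:**
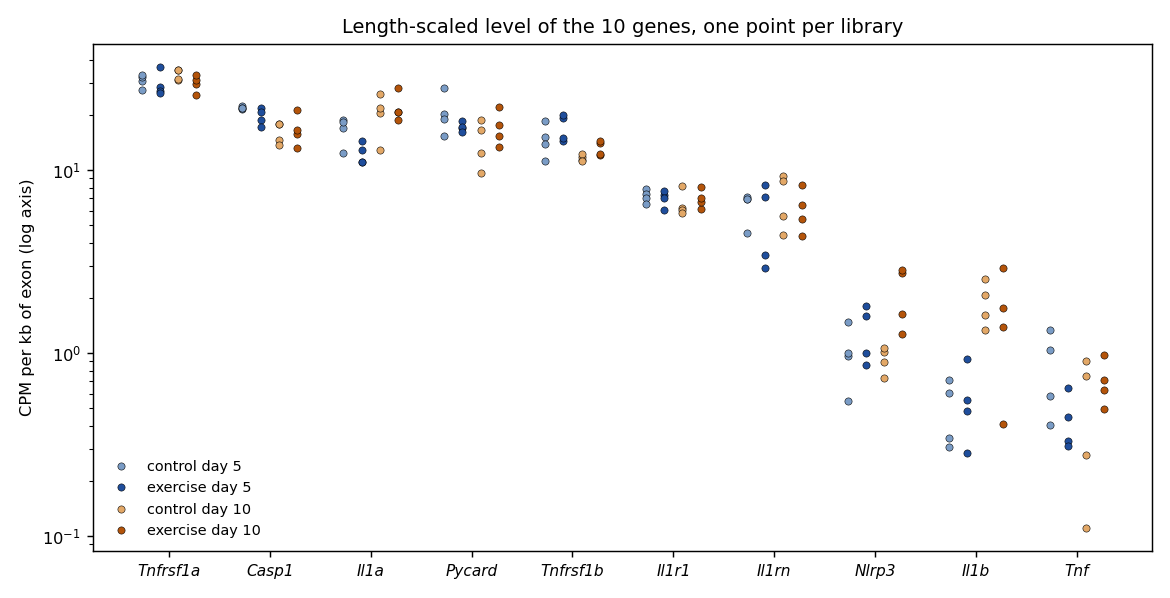
Length-scaled level (CPM per kb of exon, log axis) of the 10 genes, ordered by mean level, with 1 point per library and the 4 groups side by side in colour. Tnfrsf1a is highest, Il1a lies well above Il1b, and Nlrp3, Il1b and Tnf form the low end.

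Il1b was higher at day 10 than at day 5. In the day 5 control group it lay at 1.35, 0.583, 1.16 and 0.654 CPM in replicates 1, 2, 5 and 6. In the day 10 control group it lay at 3.95, 2.55, 3.07 and 4.83 CPM in replicates 2, 3, 4 and 5. Every day 10 control library was above every day 5 control library. The means were 0.937 ± 0.377 and 3.60 ± 1.0 CPM (SD, n = 4), a 3.83-fold rise, or 1.94 on the log2 scale (SE 0.50, 95% interval 0.89 to 2.98, adjusted p = 0.0153 with edgeR's quasi-likelihood test and Benjamini-Hochberg adjustment over 15096 genes). Refits that each left out 1 of the 16 libraries gave log2 changes from 1.76 to 2.17, past the threshold in 15 of 16. The exception was the refit without day 5 control replicate 2 (adjusted p = 0.0516).

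In the exercise groups Il1b lay at 0.542, 1.77, 1.06 and 0.921 CPM at day 5 in replicates 1, 2, 7 and 12, and at 3.35, 0.781, 5.59 and 2.64 CPM at day 10 in replicates 13, 17, 18 and 19. Replicate 17, with 8 Il1b reads, was inside the day 5 range, and the other 3 day 10 libraries were above every day 5 library. The log2 change was 1.55 (SE 0.50, 95% interval 0.49 to 2.60) and did not pass (edgeR adjusted p = 0.057). Without replicate 17 it was 1.87 and passed (edgeR adjusted p = 0.00963), and DESeq2 on all libraries also called it (adjusted p = 0.0283, among 0.0283 to 0.15 over 6 alternative settings). The library with the highest pan-myeloid sum of all 16 was thus the day 10 library with the least Il1b. Exercise did not separate the groups for Il1b at day 5 (0.17, 95% interval -0.94 to 1.28) or at day 10 (-0.22, -1.19 to 0.75). Both intervals span changes in either direction.

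Il1a, the interleukin-1 that needs no caspase-1 cleavage to signal, was higher at day 10 than at day 5 in the exercise groups. It lay at 21.8, 25.3, 28.5 and 21.7 CPM in day 5 exercise replicates 1, 2, 7 and 12. At day 10 it lay at 40.9, 55.5, 37.2 and 41.1 CPM in replicates 13, 17, 18 and 19. All 4 day 10 libraries were above all 4 day 5 libraries. The means were 24.3 ± 3.27 and 43.7 ± 8.11 CPM, a 1.79-fold rise, or 0.84 on the log2 scale (SE 0.19, 95% interval 0.44 to 1.25, edgeR adjusted p = 0.00976). The call held in all 16 leave-one-out refits (adjusted p from 0.00363 to 0.0341) and was 0.71 without replicate 17 (edgeR adjusted p = 0.0255).

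Marker genes of myeloid cells moved in the same comparison. All 11 homeostatic microglia genes had positive day changes in exercise, with 7 called and a median of 0.89 on the log2 scale. Their summed level was 7394 to 10157 CPM over the day 5 libraries, then 8180 to 17067 CPM. Of 10 pan-myeloid genes 9 were positive, with Ptprc, Aif1 and Laptm5 called higher and Cd68 called lower, and their sum went from 3455 to 3764 CPM to 2861 to 5228 CPM. All 9 tested genes of monocyte-derived macrophages were negative (median -1.15), with 4 called lower (Ly6c2, Mrc1, Chil3 and Arg1). The sum of that list went from 1142 to 2332 CPM to 747 to 1568 CPM. Other cell lists moved in this comparison too. All 10 neuronal genes were negative (median -1.53), with 5 called lower. All 10 myelin genes were positive with 3 called, and 9 of 10 endothelial genes were negative with 3 called lower. The part of cell content in the Il1a change was not tested.

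In the control groups Il1a lay at 33.6, 24.3, 37.2 and 35.8 CPM at day 5 and at 40.2, 25.3, 42.7 and 51.3 CPM at day 10. The ranges overlapped, since replicate 3 at day 10 was close to the lowest day 5 library, and the log2 change of 0.29 did not pass (95% interval -0.11 to 0.69, edgeR adjusted p = 0.359). The difference between the exercise and the control day change, 0.56 (95% interval -0.01 to 1.13), did not pass either (edgeR adjusted p = 0.553), so the rise is not shown to be particular to exercise. At day 5 Il1a was 0.43 lower on the log2 scale in exercise than in control, with an unadjusted p of 0.0401 and an adjusted p of 0.484 by edgeR. At day 10 the exercise difference was 0.13 (95% interval -0.27 to 0.53), and -0.01 without replicate 17.

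Il1rn, which encodes the receptor antagonist, did not pass in any comparison. Its group means were 35.3 ± 6.80 CPM in day 5 control, 30.1 ± 14.8 in day 5 exercise, 38.8 ± 13.2 in day 10 control and 33.9 ± 9.32 in day 10 exercise. Its libraries varied most in day 5 exercise, with replicates 1 and 2 at 16.1 and 18.9 CPM and replicates 7 and 12 at 45.7 and 39.6 CPM. Its log2 differences ran from -0.23 to 0.17 in the 4 pairwise comparisons.

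The ratio of Il1rn to Il1b, each per kilobase, was lower at day 10 in control. In control it lay at 9.77, 23.3, 11.4 and 13.2 at day 5 and at 2.72, 3.30, 5.78 and 3.44 at day 10, with no overlap. In exercise it lay at 10.2, 3.67, 14.8 and 14.8 at day 5 and at 3.65, 10.6, 2.84 and 3.92 at day 10, where replicate 17 was the high library and the groups overlapped. At every day and in every library the antagonist's transcript exceeded that of Il1b per kilobase. Between the days Il1rn changed by only 0.14 in control and 0.17 in exercise on the log2 scale. The ratio's day difference therefore mostly restates that of Il1b, which rested on 6 to 63 reads per library.

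Tnf was low in all groups and passed in no comparison. It lay at 0.954, 0.666, 1.69 and 2.18 CPM in day 5 control and at 0.542, 0.507, 1.06 and 0.737 CPM in day 5 exercise. At day 10 it lay at 0.456, 0.182, 1.49 and 1.23 CPM in control and at 1.02, 1.17, 1.6 and 0.812 CPM in exercise. The ranges overlapped in every comparison. The log2 difference between exercise and control was -0.93 (95% interval -2.12 to 0.25) at day 5 and 0.46 (-0.71 to 1.63) at day 10. The SE of both differences was 0.56, and the day 5 difference was itself not called.

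Among the receptors, Il1r1 and Tnfrsf1a moved least. Il1r1, the signalling receptor for both interleukin-1 cytokines, had group means between 41.6 and 45.9 CPM, and its 4 pairwise log2 differences lay between -0.14 and 0.09. Tnfrsf1a, the TNF receptor with a death domain, had group means between 76.5 and 85.9 CPM and log2 differences between -0.16 and 0.11. All of their 95% intervals lay between -0.41 and 0.36.

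Tnfrsf1b, the TNF receptor without a death domain, lay at 71.0, 57.8, 42.6 and 52.9 CPM in day 5 control and at 43.1, 44.7, 46.8 and 42.7 CPM in day 10 control. In exercise it lay at 54.9, 73.4, 76.6 and 57.4 CPM at day 5 and at 46.2, 53.8, 55.2 and 46.7 CPM at day 10. The day 10 means were below the day 5 means in both arms, with overlapping ranges. The log2 changes of -0.34 in control (95% interval -0.64 to -0.04) and -0.38 in exercise (-0.68 to -0.08) did not pass after adjustment (edgeR adjusted p = 0.131 and 0.104). The control change passed in 1 of 16 leave-one-out refits, without day 5 control replicate 5 (-0.45, edgeR adjusted p = 0.0429).

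The ratio of Tnfrsf1b to Tnfrsf1a per kilobase separated the day 10 groups. It was 0.321, 0.380, 0.349 and 0.356 in control and 0.410, 0.453, 0.441 and 0.477 in exercise, in replicate order. Every day 10 exercise library, replicate 17 included, was above every day 10 control library, and the lowest exercise and the highest control value were 0.410 and 0.380. Neither gene passed alone at day 10, at 0.19 on the log2 scale for Tnfrsf1b (edgeR adjusted p = 0.615) and -0.16 for Tnfrsf1a (edgeR adjusted p = 0.603). At day 5 the ratio overlapped, with control libraries from 0.349 to 0.682, exercise libraries from 0.412 to 0.762. This ratio and that of Il1rn to Il1b are given as descriptions, with no test. The share of other gene pairs whose ratio separates the same groups was not counted. Among single genes, 5.88% separated the day 10 groups and 20% separated the days in control.

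**Figure D2:**
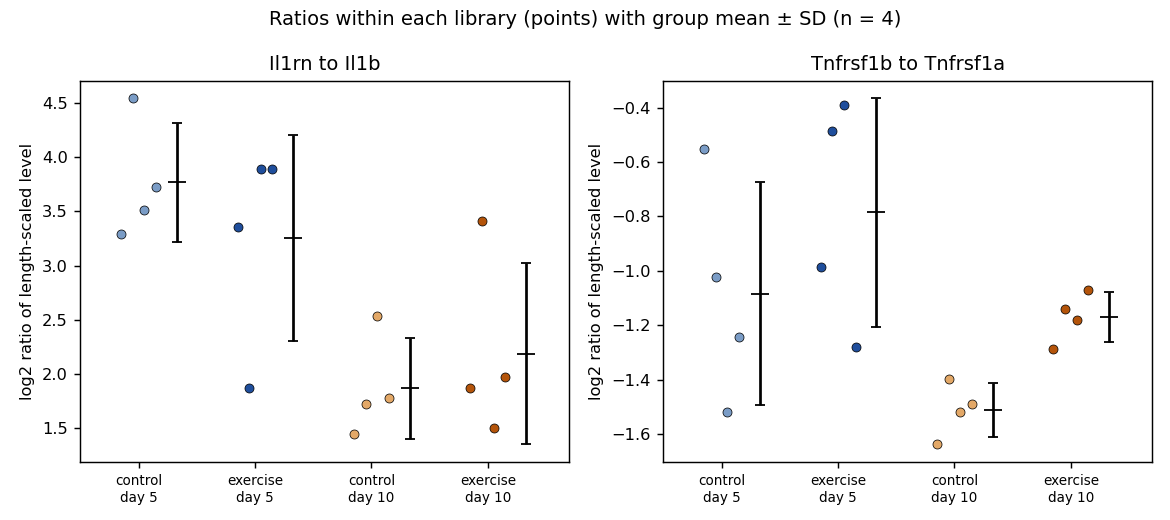
The log2 ratio of Il1rn to Il1b (left) and of Tnfrsf1b to Tnfrsf1a (right), each from levels per kilobase, in every library (points) with the group mean and SD (n = 4). The first ratio separates the days in control and overlaps in exercise, and the second separates the day 10 groups.

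Nlrp3, the sensor whose transcription is known to be raised by NF-kB, was the member with the highest exercise difference. At day 10 it lay at 4.10, 3.64, 2.98 and 4.34 CPM in control replicates 2, 3, 4 and 5, and at 11.1, 11.5, 5.14 and 6.59 CPM in exercise replicates 13, 17, 18 and 19. All 4 exercise libraries were above all 4 control libraries, with replicates 13 and 17 at about the same high level. The means were 3.76 ± 0.599 and 8.58 ± 3.20 CPM, a log2 difference of 1.18 (SE 0.33, 95% interval 0.49 to 1.88). Its unadjusted p was 0.00202 and its adjusted p was 0.156 by edgeR, so it did not pass over 15096 genes. Of these, 3.3% were separated in the same direction and 0.106% were called higher.

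The call on Nlrp3 depended on the tool. DESeq2 gave the same difference of 1.18 with an adjusted p of 0.0436, the lowest of 7 alternative settings, which ran up to 0.437. None of the 16 leave-one-out refits passed (edgeR adjusted p from 0.0611 to 0.309), with log2 differences from 1.01 to 1.36. The refit without replicate 17, with 3 exercise libraries against 4 controls, gave the lowest difference, 1.01, and the highest adjusted p (0.309, edgeR). The authors' deposited table, from 7 libraries, lists 1.0 (SE 0.36) with p = 0.00491 and an adjusted p of 0.173.

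At day 5 Nlrp3 lay at 3.90, 4.08, 2.23 and 5.96 CPM in control and at 6.50, 7.35, 4.05 and 3.50 CPM in exercise, and the ranges overlapped. The difference of 0.39 did not pass (95% interval -0.30 to 1.09), and the exercise difference was not shown to differ between the days (0.79, edgeR adjusted p = 0.603). Between days, Nlrp3 changed by -0.11 in control and 0.69 in exercise on the log2 scale, neither of which passed (edgeR adjusted p = 0.875 and 0.191). Without replicate 17 the day change in exercise was 0.51 (edgeR adjusted p = 0.37). The difference of the exercise effect between days was then 0.63 (edgeR adjusted p = 0.828).

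Casp1, the protease that matures interleukin-1 beta and interleukin-18, was lower at day 10 in the control groups. It lay at 32.3, 33.3, 32.5 and 32.6 CPM at day 5 and at 26.5, 21.9, 20.4 and 26.6 CPM at day 10. The day 5 control libraries were close together and all above the day 10 control libraries. The means were 32.7 ± 0.447 and 23.9 ± 3.18 CPM, a 1.37-fold fall, or -0.45 on the log2 scale (SE 0.14, 95% interval -0.75 to -0.15, edgeR adjusted p = 0.0455). The call was near the threshold. It passed in 4 of 16 leave-one-out refits (adjusted p from 0.0186 to 0.121) and in 5 of 7 alternative settings (adjusted p from 0.0217 to 0.0834). It was lost with no filter on low counts (edgeR adjusted p = 0.0834) and with the replicate block (edgeR adjusted p = 0.0738). The log2 change lay between -0.52 and -0.39 in the leave-one-out refits.

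In exercise Casp1 lay at 27.9, 32.7, 25.7 and 31.0 CPM at day 5 and at 19.8, 31.9, 23.5 and 24.7 CPM at day 10. Replicate 17 was the high day 10 library and the ranges overlapped. The log2 change was -0.23 (95% interval -0.53 to 0.07), and -0.37 without replicate 17 (edgeR adjusted p = 0.0924). The exercise differences of Casp1 were -0.16 at day 5 and 0.06 at day 10, and neither passed.

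Pycard, the adaptor that links the sensor to the protease, lay at 21.6, 28.4, 26.6 and 39.4 CPM in day 5 control and at 13.4, 17.5, 26.2 and 23.1 CPM in day 10 control. The ranges overlapped, and the log2 change of -0.53 did not pass (95% interval -0.97 to -0.09, edgeR adjusted p = 0.105). In exercise its means were 24.1 ± 1.28 CPM at day 5 and 23.9 ± 5.31 CPM at day 10, a log2 change of -0.01. Without replicate 17 that change was -0.16 (edgeR adjusted p = 0.697). The adaptor and the protease had negative day changes in control while Il1b rose. Across the 16 libraries, which share the day difference, Pearson's r was -0.69 between Il1b and Casp1 and -0.62 between Il1b and Pycard, and -0.04 between Il1b and Nlrp3.

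**Figure D3:**
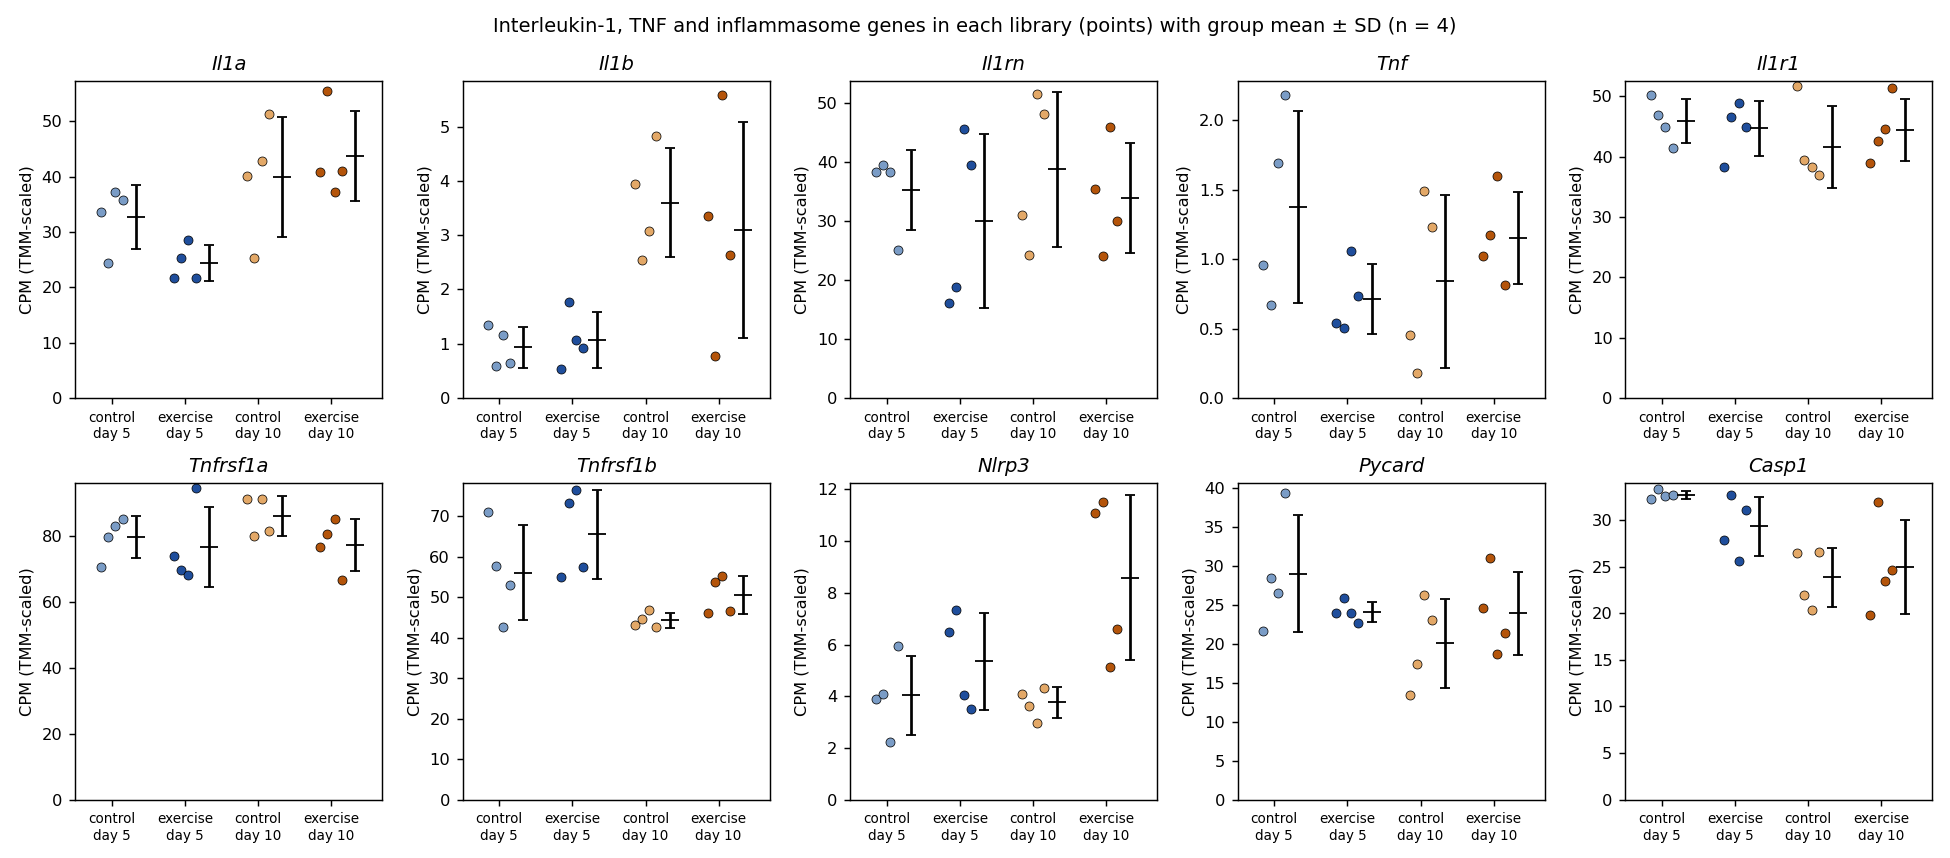
TMM-scaled CPM of each of the 10 genes in the 16 libraries (points), with the group mean and SD (n = 4) beside each group. Il1b in control and Il1a in exercise are higher at day 10, Casp1 in control is lower at day 10, and Nlrp3 in the 4 day 10 exercise libraries lies above the 4 day 10 controls.

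Counted by comparison, 0 of 10 members passed between exercise and control at day 5, where 0% of the 15096 tested genes passed. At an unadjusted p under 0.05 edgeR gave 1 member (Il1a) and 1513 genes, and DESeq2 called 0 members and 79 genes, with no adjusted p for Il1b, Tnf and Nlrp3. No member separated the day 5 groups, against 7.29% of all genes. Between exercise and control at day 10, 0 members passed, against 0.192% of all genes. At an unadjusted p under 0.05 edgeR gave 1 member (Nlrp3) and 1935 genes, DESeq2 called 1 member (Nlrp3) and 218 genes, and limma-voom called 0 members and 32 genes. Without exercise replicate 17 the exercise differences were 0.45 for Tnf, -0.06 for Il1rn, 0.11 for Il1r1, -0.18 for Tnfrsf1a, 0.16 for Tnfrsf1b, 0.11 for Pycard, 0.10 for Il1b and -0.07 for Casp1 on the log2 scale. None of the 10 passed in that refit. Only Nlrp3 of the 10 separated the day 10 groups, against 5.88% of all genes.

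Between the days in control, 2 of 10 members passed, Il1b higher and Casp1 lower, against 12.3% of all genes. The same 2 members separated the days without overlap, against 20% of all genes. Between the days in exercise, 1 of 10 passed and separated, Il1a higher, against 10.1% of all genes called and 14.1% separated. With 10 genes, shares of 1 or 2 members are near the background, and nothing particular to them is read from these counts. The difference between the exercise effects at the 2 days passed for 0 members and 0% of genes. At an unadjusted p under 0.05 edgeR gave 0 members and 1376 genes there, and DESeq2 called 0 members and 13 genes. The median log2 difference of the members was -0.11 and 0.11 for exercise at day 5 and day 10, and -0.12 and 0.09 for the days in control and exercise, beside medians of 0.01 over all genes tested in all 4. The 2 exercise comparisons share their libraries with the 2 day comparisons.

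**Figure D4:**
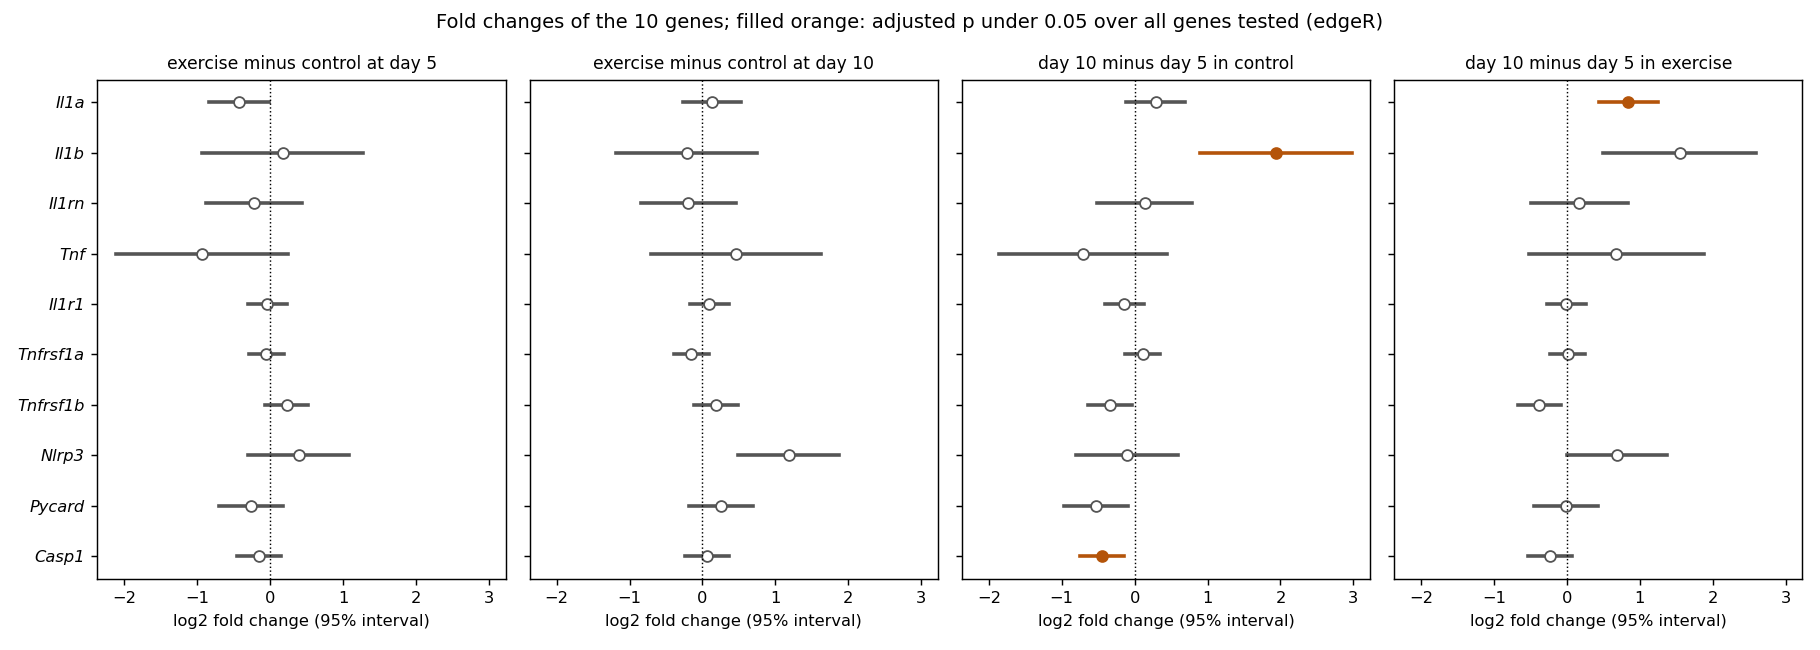
The log2 fold change with its 95% interval for each of the 10 genes in the 4 pairwise comparisons. Filled orange points passed an adjusted p of 0.05 over all genes tested, which are Il1b and Casp1 between days in control and Il1a between days in exercise.

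The authors' deposited tables of exercise against control list 0 of the 10 members with an adjusted p under 0.05. At day 5 the lowest p in the authors' deposited table belongs to Il1a, at -0.43 (SE 0.17) on the log2 scale with p = 0.0131 and an adjusted p of 0.177. The same table gives no adjusted p for Il1b and Tnf at day 5.

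Markers of the myeloid cells known to express these genes also differed between groups. At day 10 all 10 pan-myeloid genes had positive exercise differences and 1 was called, the integrin Itgam, at 1.02 on the log2 scale (edgeR adjusted p = 0.0424). The summed pan-myeloid level was 2597 to 3496 CPM in day 10 control and 2861 to 5228 CPM in day 10 exercise, so the ranges overlapped. All 11 homeostatic microglia genes were positive as well, with 0 called by edgeR, 6 at an unadjusted p under 0.05 and 1 called by DESeq2 (Csf1r), and with summed levels of 7413 to 10143 and 8180 to 17067 CPM. Nlrp3 was also high in replicate 13, whose pan-myeloid sum of 3421 CPM lay inside the control range and whose homeostatic microglia sum of 10539 CPM lay above all 4 day 10 controls. Of 9 tested genes of monocyte-derived macrophages 6 had negative exercise differences at day 10 (median -0.27) and 1 was called lower, Plac8, at -1.98 (edgeR adjusted p = 0.0424), while the list's summed level was 625 to 982 CPM for control libraries, 747 to 1568 CPM for exercise libraries. Differences were also negative for 9 of 10 myelin genes (median -0.28), 9 of 10 astrocyte genes (median -0.31) and 8 of 10 endothelial genes (median -0.71). Of these 30 genes 1 was called lower, the endothelial transporter Slco1a4. Of 8 fibroblast and meninges genes 5 were negative and 3 positive (median -0.60), with 1 called lower. Their summed level was 4114 to 5409 CPM in day 10 control. In exercise replicates 13, 17, 18 and 19 it was 1694, 1638, 4864 and 4079 CPM, beside Nlrp3 at 11.1, 11.5, 5.14 and 6.59 CPM. In the edgeR refit without exercise replicate 17, 0 genes were called at day 10. The calls of Itgam, Plac8, Slco1a4 and the fibroblast and meninges gene therefore did not hold. The highest pan-myeloid and homeostatic microglia sums, 5228 and 17067 CPM, were also those of replicate 17. The part of cell content in the Nlrp3 difference was not tested.

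**Figure D5:**
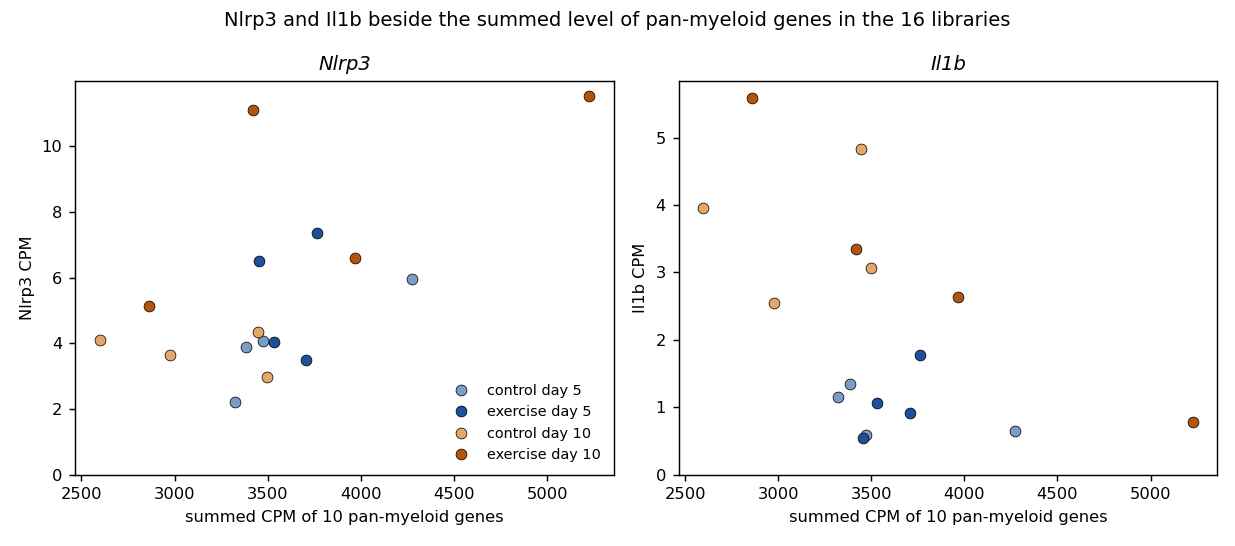
Nlrp3 (left) and Il1b (right) in CPM against the summed CPM of 10 pan-myeloid genes in the 16 libraries, coloured by group. The library with the highest myeloid sum, day 10 exercise replicate 17, has high Nlrp3 and low Il1b.

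Between the days in control, 6 of 9 tested genes of monocyte-derived macrophages were negative, with 5 called lower (Arg1, Chil3, Mrc1, F13a1 and Fn1). Their list's summed level went from 1127 to 3102 CPM at day 5 to 625 to 982 CPM at day 10. Arg1, arginase 1 of wound-type macrophages, fell by 3.27 on the log2 scale. In the same comparison 8 of 11 homeostatic microglia genes were positive, with 4 called higher (Cx3cr1, Siglech, Sall1 and Csf1r). The summed level of this list was 8617 to 11467 CPM at day 5 and 7413 to 10143 CPM at day 10. The summed pan-myeloid level was 3322 to 4275 CPM at day 5 and 2597 to 3496 CPM at day 10. The neutrophil markers Mpo and Elane were at 0 in all 16 libraries, and Ly6g was at or near 0. The sum of the 10 neutrophil genes nevertheless separated the days, from 62.7 to 98.5 CPM at day 5 to 127 to 194 CPM at day 10 for control libraries, and from 75.4 to 91.5 CPM to 178 to 195 CPM for exercise libraries. Nearly all of that sum was Csf3r, the receptor for granulocyte colony-stimulating factor, which microglia also express. It was the 1 of 4 tested genes of the list called in either arm, at 79.2 and 161 CPM in control (1.02 on the log2 scale, edgeR adjusted p = 0.000187) and 76.0 and 186 CPM in exercise (1.29, edgeR adjusted p = 5.23e-05). The other 3 were all positive in control and all negative in exercise, with 0 called. Summed lymphocyte markers reached at most 10.2 CPM. Other cell lists moved between the days in control as well. All 10 myelin genes were positive with 7 called, and their mean summed level went from 13588 to 25903 CPM. All 8 fibroblast and meninges genes were positive with 3 called, and 8 of 10 astrocyte genes with 5 called. Of 10 neuronal genes 9 were negative, with 3 called lower. Casp1 fell and Il1b rose in control alongside these marker changes, and the part of cell content in either was not tested.

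The other genes of the interleukin-1 family, 18 tested of 25 listed, passed in no exercise comparison by edgeR (0 at day 5 and 1 at day 10 had an unadjusted p under 0.05) or DESeq2. Between days in control 1 passed, the alarmin Il33, from 192 to 97.1 CPM (-0.98 on the log2 scale, edgeR adjusted p = 0.00997). Between days in exercise 2 rose, the interleukin-33 receptor Il1rl1 by 1.69 and the interleukin-36 receptor Il1rl2 by 0.66. The co-receptor Il1rap, which interleukin-1 needs to signal, had group means of 66.0 to 82.4 CPM and did not pass at day 10 for exercise. The decoy receptor Il1r2 was too low to test, at 0.343 to 0.728 CPM. The list's median log2 difference was 0.02 and 0.10 for exercise at day 5 and day 10, and -0.08 and -0.03 for the days in control and exercise.

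Of 20 tested genes of TNF receptor signalling and cell death, 0 passed for exercise at either day by edgeR or DESeq2, and 0 and 2 had an unadjusted edgeR p under 0.05. Ripk3, the kinase of necroptosis downstream of TNF receptor 1, fell between days in both arms, by 1.0 on the log2 scale in control and by 1.05 in exercise. In exercise 2 rose, the A20-binding inhibitor Tnip2 by 0.97 and the stress kinase Map3k5 by 0.53. The list's median was 0.01 and 0.09 for exercise at day 5 and day 10, and 0.07 and -0.10 between days in control and exercise.

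Of 18 tested inflammasome sensors, caspases and pore genes beside the members, 0 passed for exercise by edgeR, and 0 at day 5 and 4 at day 10 had an unadjusted p under 0.05. DESeq2 called 1 at day 10, Naip5, a sensor of bacterial flagellin. Between days in control Txnip, a thioredoxin-binding protein, rose by 0.46 and the lysosomal protease Ctsb fell by 0.85, from 9129 to 5071 CPM. Between days in exercise 4 rose, Naip5 (0.65), the NLRP3 partner kinase Nek7 (0.34), the ATP-gated channel P2rx7 (0.38) and Txnip (0.53), and the pyrin gene Mefv fell by 3.28 from low counts. The DNA sensor Aim2 had means of 49.3 CPM in day 10 control and 68.7 CPM in day 10 exercise, a difference of 0.48 that did not pass (edgeR adjusted p = 0.338). Gsdmd, the pore that caspase-1 opens, lay at 18.2 to 25.4 CPM. The list's median was 0.09 and 0.05 for exercise at day 5 and day 10, and 0.03 and -0.03 between days in control and exercise.

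Among 14 tested NF-kB subunits, kinases and inhibitors, 0 passed for exercise by edgeR or DESeq2, and 1 at day 5 and 2 at day 10 had an unadjusted edgeR p under 0.05. Between days in control 3 rose, Nfkb1 by 0.38, Relb by 1.07 and the inhibitor-family gene Nfkbiz by 0.86. In exercise 1 rose, Nfkb1 by 0.58. The list's median was 0.14 and 0.10 for exercise at day 5 and day 10, and 0.27 and 0.11 between days in control and exercise.

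Of 20 tested inflammatory genes that interleukin-1 or TNF are known to induce, 0 passed for exercise at either day by edgeR. An unadjusted edgeR p under 0.05 was reached by 2 at day 5 and 8 at day 10, against 1513 and 1935 of all 15096 genes. DESeq2 called 3 at day 10, Ccl7, Selp and Lcn2. At day 5 the exercise differences were positive for 13 and negative for 7, with a median of 0.24. At day 10 they were negative for 14 and positive for 6, with a median of -0.29, while Nlrp3 was positive. Ccl7, a monocyte chemokine, had the lowest p of the list for exercise at day 10, at -1.67 (edgeR adjusted p = 0.0613). For the difference of the exercise effect between the days, 16 were negative and 4 positive (median -0.52). There 7 had an unadjusted edgeR p under 0.05, against 1376 of all genes. In that comparison edgeR called 0 of the list and DESeq2 called 1, Lcn2. Between days in control Icam1, a leukocyte adhesion molecule, rose by 0.49, while the chemokine Ccl2 fell by 0.90 and the cytokine Lif by 1.24. Between days in exercise 5 fell, Ccl2 by 1.73, Ccl7 by 1.59, Cxcl10 by 2.48, Selp by 3.90 and Lcn2 by 1.94, and 0 rose. The list's median day change was 0.24 in control (12 positive, 8 negative) and -0.41 in exercise (6 positive, 14 negative). Il6 was too low to test, at 0.144 to 0.654 CPM.

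By log2 CPM over the 16 libraries, the gene most like Il1a was Evl (Pearson's r 0.91), and those most like Il1b were Ptn (0.90), Plxna4os1 (0.90) and Cdk7 (0.90). Nlrp3 was most like Pacsin2 (0.84), Casp1 like Atp2a3 (0.90), Pycard like Syngr1 (0.88) and Tnfrsf1b like Rnf149 (0.91). Il1rn was most like Tceal5 (0.80), Il1r1 like Pigc (0.84), Tnf like Fbxl6 (0.83) and Tnfrsf1a like Syt15 (0.82). These are the highest of 15096 values each, over libraries that share group, day and depth.

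Annotated positions on GRCm38 place the 10 genes on 8 chromosomes, with Il1a (chr2:129299610-129309972), Il1b (chr2:129364570-129371139) and Il1rn (chr2:24336853-24351494) on chromosome 2. Counting used the gene's own strand, so the antisense genes Il1bos (0 to 1 reads per library) and Gm14023, opposite Il1a (14 to 50 reads), were counted apart. Gm38070 lies within Il1r1 on the same strand (1 to 21 reads), and reads there cannot be assigned to 1 of the 2 with certainty.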

How the data were processed

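RNA was extracted from laser-microdissected lesions, amplified, selected for poly(A) and sequenced as strand-specific single reads of 75 nt, per the labels' protocols. The submitters' processing notes name FastQC 0.11.4, TopHat2 2.0.10, Bowtie 1.1.2 and the build GRCm38. The deposited counts per gene, with exon lengths, come, per the file headers, from featureCounts 1.5.0-p1 run in stranded mode. A normalized signal was deposited too (counts divided by 1 factor per library) and used only as an alternative scaling. The authors' comparison tables hold log2 fold changes and p-values.

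Amplification before sequencing can add to the spread of low counts. Genes were filtered with edgeR 4.0.16 in R 4.3.3 (filterByExpr, minimum count 10, minimum total 15), which left 15096, including all 10 members. The quasi-likelihood fit used all 16 libraries, TMM scaling, robust estimation and a mean for each group, with 12 residual degrees of freedom. Benjamini-Hochberg adjustment ran over every tested gene, and a gene passed or was called when under 0.05. CPM values are means ± SD over 4 libraries. Levels compared between genes were divided by exon length. Likeness between genes used log2 CPM with a prior count of 2. Alternatives were other size factors, other filters, DESeq2 1.42.0, limma-voom (limma 3.58.1), only the groups compared, a replicate block and leaving out each library. The members, gene lists and tests were chosen with earlier results of these data known. All members were named in every comparison, with the genes of each list that passed and, for each member, the most alike genes. Other genes named with values were chosen after their values were seen.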

Additional observations from a re-analysis of the deposited data

Results flagged for a closer look

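Of 40 groups of 4 libraries examined, 1 for each member and group, 2 held a library far from the other 3, and chance gives about 1 in 20. Il1rn, the receptor antagonist gene, was lowest in day 5 control replicate 6 at 25.1 CPM, against 38.3 to 39.5 CPM in the other 3 libraries of that group. Il1r1, the interleukin-1 receptor gene, was highest in day 10 control replicate 2 at 51.7 CPM, against 37.0 to 39.4 CPM in the other 3.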

How the results depend on the processing

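Between days in control, 1 member was called with no filter on low counts (Il1b), 1 with at least 50 counts in at least 4 libraries (Casp1, with Il1b not tested there) and 1 with a replicate block (Il1b), and 0 to 2 in the refits that left out 1 library. Between days in exercise 2 were called by DESeq2 (Il1a and Il1b) and 1 to 2 in the leave-one-out refits. DESeq2 called 1 member for exercise at day 10 (Nlrp3). Over all genes, exercise at day 10 gave 29 calls as reported, 46 with at least 50 counts, 218 by DESeq2, 0 with only the groups compared, 0 with a replicate block, and 0 to 133 on leaving out a library. Exercise at day 5 gave 0 as reported, 79 by DESeq2 and 0 to 1 on leaving out a library, and the difference between days gave 0 as reported, 13 by DESeq2 and 0 to 1. The day change in exercise gave 1520 calls as reported, 856 with only the groups compared, 918 with a replicate block and 975 to 1839 on leaving out a library. The cause of these changes was not tested.

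The labels do not say whether equal replicate numbers mark a shared animal, litter or day. In deviations from the group means, the 5 same-numbered pairs had correlations of -0.0691 to 0.0687, 0 of them over 0.1. So few pairs do not settle whether equal numbers share anything. With the replicate block, 4 uncalled values changed sign: Il1b for exercise at day 10 (0.11), Il1rn between days in control (-0.0423), and Il1r1 (0.0352) and Tnfrsf1a (-0.0495) between days in exercise. On leaving out a library, 14 uncalled values changed sign. For exercise at day 5 these were Il1b (-0.15 to 0.41) and Il1r1 (-0.0814 to 0.0332), and at day 10 Il1a (-0.0438 to 0.28), Il1b (-0.67 to 0.10) and Casp1 (-0.0740 to 0.15). Between days in control they were Il1rn (-0.0277 to 0.31) and Nlrp3 (-0.31 to 0.16), and in exercise Il1rn (-0.0432 to 0.44), Il1r1 (-0.0903 to 0.0407), Tnfrsf1a (-0.0456 to 0.12) and Pycard (-0.16 to 0.0855). For the difference between days they were Il1rn (-0.18 to 0.30), Tnfrsf1a (-0.16 to 0.0101) and Tnfrsf1b (-0.17 to 0.0749). The ratios and levels moved by less than the spread between replicates under the authors' size factors. Depth limits Il1b and Tnf most.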
